A study of Mus musculus with 5 samples.

Results

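Fc receptors and the adaptors that signal for them were followed in Langerhans cells, the resident antigen-presenting phagocytes of the epidermis. The set held 10 genes, chosen by symbol and matched by NCBI gene identifier among the 27179 in the count table. They were the IgG receptors Fcgr1, Fcgr2b, Fcgr3 and Fcgr4, the IgE receptor alpha chain Fcer1a, the adaptors Fcer1g and Tyrobp, the kinase Syk, and the receptors Trem2 and Sirpa. All 10 were found in the table.

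Each library was made from messenger RNA of 5000 such cells, taken from skin at an age of 1 week. The mice were on the C57BL/6 background. The genotype was wild type (WT, 2 libraries) or Suz12 cKO (3 libraries), a conditional knockout of Suz12, which encodes a core subunit of Polycomb repressive complex 2. Not given in the sources used here were the Cre driver and whether the WT mice carried Cre or floxed alleles. The comparison asks how the levels of these genes, and the balance of activating and inhibitory Fc receptors, differed between the genotypes.

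Antibody bound to an antigen is sensed by Fc receptors. Activating receptors such as Fcgr1, Fcgr3, Fcgr4 and the IgE receptor have little signalling capacity of their own and pair with Fcer1g, the Fc receptor gamma chain, while Trem2 and many lectin and Ig-like receptors pair with Tyrobp, also called DAP12. Both adaptors carry an immunoreceptor tyrosine-based activation motif (ITAM), a pair of spaced tyrosines which, once phosphorylated by Src-family kinases, recruit Syk. Fcgr2b and Sirpa carry the inhibitory counterpart (ITIM), which recruits phosphatases. Cells that hold both activating and inhibitory IgG receptors are commonly described by the ratio of one to the other.

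The coding stretches for these motifs are shown because they set apart the activating and inhibitory members. Each was found by a scan for the motif in the translation of 1 coding transcript per gene (GENCODE vM21, mm10). The ITAM lines begin and end at the motif, and capitals mark the tyrosine codons and the leucine codons that follow them.
Fcer1g ITAM: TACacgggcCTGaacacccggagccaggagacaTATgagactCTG
Tyrobp ITAM: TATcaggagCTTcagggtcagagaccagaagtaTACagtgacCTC
In Fcer1g the motif lies at chr1:171229889-171230072 on the minus strand, in Tyrobp at chr7:30415670-30417382 on the plus strand, and in both it is split between exons 4 and 5. Both motifs span 45 coding bases.

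For the inhibitory motif only matches near the end of the protein were kept, with a cut-off set for each gene. That left 1 match in Fcgr2b and 3 in Sirpa, with capitals marking the first, the tyrosine and the last codon.
Fcgr2b ITIM: ATCaccTACtcacttCTC
Sirpa ITIM 1: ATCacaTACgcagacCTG
Sirpa ITIM 2: CTCaccTATgctgacCTG
Sirpa ITIM 3: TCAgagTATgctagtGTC
The Fcgr2b match lies at chr1:170961071-170961088 on the minus strand, in exon 7. The Sirpa matches lie in exon 8 on the plus strand, at chr2:129629954-129629971, chr2:129630077-129630094 and chr2:129630149-129630166. A match is a stretch of letters and says nothing about phosphorylation in these cells.

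The table's members include 5 that lie on mouse chromosome 1. Fcgr2b (170960558 to 170976071), Fcgr4 (171018926 to 171029761), Fcgr3 (171051169 to 171065915) and Fcer1g (171229572 to 171234349) follow one another there, with Fcer1a farther along (173221269 to 173227232). Fcgr1 lies on chromosome 3, Sirpa on chromosome 2, Tyrobp on chromosome 7, Syk on chromosome 13 and Trem2 on chromosome 17.

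Fcgr3 and Fcgr2b are close relatives, and the longest run of bases shared by their transcripts was 129 bases. It codes for part of the extracellular region in exons 3 and 4 of both genes, at chr1:171054167-171057792 in Fcgr3 and chr1:170966674-170968081 in Fcgr2b, both on the minus strand. It is shown because a 75-base read that falls wholly inside it cannot be assigned to either gene.
Fcgr3 and Fcgr2b shared run: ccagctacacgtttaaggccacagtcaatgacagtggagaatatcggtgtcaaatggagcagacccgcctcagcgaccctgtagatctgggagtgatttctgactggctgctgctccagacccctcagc
Of all 75-base windows, 94 were shared, which is 5.78% of those of Fcgr3 and 2.48% of those of Fcgr2b. The treatment of such reads in the counting was not stated. No other pair among the IgG receptors, Fcer1a and Sirpa shared a 75-base window.

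The libraries held 12090062 to 25725900 counts, and 9103 to 10220 genes had a count in each. Values are counts per 1000000 (CPM), scaled by TMM factors. The limit that a count of 0 allows, taken as 3 counts, was 0.106 CPM in the deepest library (cKO replicate 2) and 0.257 CPM in the shallowest (cKO replicate 3). Floors and intervals cover counting error only. Of the 9988 genes tested, 3673 (36.8%) were at 10 CPM or more in some library and under 1 CPM in another, so a gene absent from a single library was common. Suz12 stood at 4.64 and 2.29 CPM in WT and at 0, 0 and 0.599 CPM in cKO, lower in every cKO library. The source label reads alveolar macrophage, against titles and a protocol that name Langerhans cells and a tissue label of skin. Cd207, which encodes langerin, was at 6613 to 14539 CPM and Epcam at 1038 to 1628 CPM over all libraries.

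The adaptors were by far the most abundant members. Levels can be compared between genes only per length of exon, as CPM per kilobase of exon (RPKM). On that scale Fcer1g averaged 3619 and Tyrobp 3536 over the 5 libraries, and they ranked 26 and 28 among all genes. The IgG receptors Fcgr2b at 79.0 RPKM (rank 1374) and Fcgr3 at 41.6 RPKM (rank 2037) came next, followed by Sirpa at 22.5 RPKM (rank 2830). Trem2 at 3.54 RPKM and Syk at 1.96 RPKM were low, and Fcgr1 averaged 0.800 RPKM from 2 libraries. Fcgr4 and Fcer1a had no count in any library. The ranges over libraries did not overlap between Tyrobp and Fcgr2b, nor between Sirpa and Trem2. Every other pair of neighbours in this order overlapped, although Fcgr2b lay above Fcgr3 in 5 of 5 libraries.

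**Figure D1:**
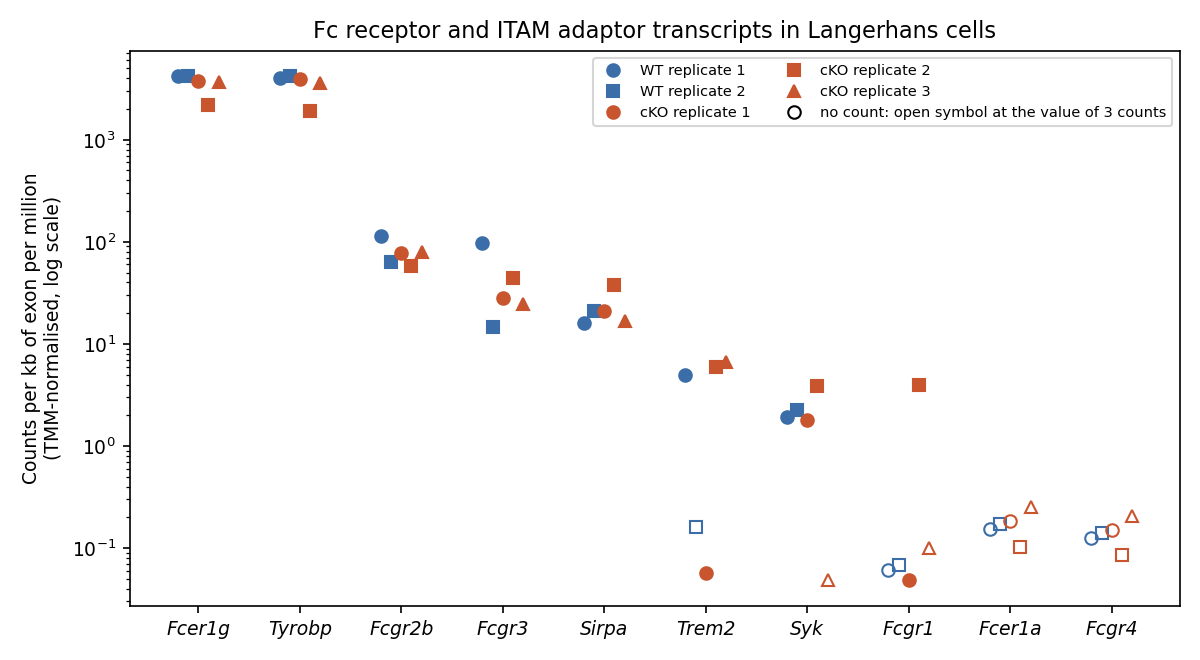
Levels of the members in each library (RPKM, log scale), with WT in blue, cKO in red, a symbol for each replicate and open symbols at the value of 3 counts where a library had none. Fcer1g and Tyrobp lie at 1911 to 4216 RPKM, Fcgr2b, Fcgr3 and Sirpa at 14.7 to 114.7 RPKM, and Trem2, Syk and Fcgr1 each include a library with no count.

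No member passed the test between the genotypes. Of the 10, 7 had enough counts to be tested. EdgeR's quasi-likelihood test with Benjamini-Hochberg adjustment over the 9988 genes gave each of the 7 an adjusted p of 0.999. It called 0 genes in all (0%). At an unadjusted p under 0.05 it gave 415 genes (4.15%), with no member among them and a smallest member p of 0.261. At an adjusted p under 0.05 DESeq2 called 191 (1.91%), again with no member. Limma-voom called 0. Of the 7 tested members 5 lay lower and 2 higher in cKO, with a median log2 fold change (cKO minus WT) of -0.30, beside 0.06 over all tested genes. The design text calls the libraries biological replicates and does not say whether each came from 1 animal or from a pool, so p-values measure the spread between these samples alone. In bulk RNA, fewer cells of a type and less RNA per cell cannot be told apart.

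Among the activating receptors Fcgr3, the low-affinity IgG receptor that pairs with Fcer1g, was the main one detected. It stood at 131 and 19.9 CPM in WT and at 37.8, 59.3 and 33.2 CPM in cKO. The WT libraries held both the highest and the lowest value, and all 3 cKO libraries were between them. The means were 75.4 ± 78.6 CPM (SD, n = 2) in WT and 43.4 ± 13.97 CPM (SD, n = 3) in cKO, a log2 fold change of -0.80 (SE 0.82, edgeR adjusted p = 0.999). Without WT replicate 1 the value was 1.13, and without WT replicate 2 it was -1.58, so the direction for Fcgr3 rests on which WT library is used.

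Fcgr1, the high-affinity IgG receptor typical of monocytes and macrophages, was detected in essentially 1 library. It had 0 and 0 counts in WT and 2, 290 and 0 counts in cKO, so that cKO replicate 2 alone stood at 10.2 CPM (95% exact Poisson interval 9.08 to 11.5). Summed over each group it was at least 62.5-fold higher in cKO, against 3 counts over the WT libraries, but without cKO replicate 2 both groups were under that floor. Fcgr1 did not reach the count filter and has no test.

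Fcgr4, an activating receptor for IgG of myeloid cells, and Fcer1a, the IgE-binding chain, had 0 counts in all 5 libraries. At these depths Fcgr4 could lie at up to 0.0846 to 0.205 RPKM and Fcer1a at up to 0.103 to 0.250 RPKM. The markers of mast cells and basophils, which carry the IgE receptor, were also near absent. Of 12 such genes 9 had no count, among them Cpa3, Tpsb2 and Mcpt4, and the list summed to 0.105 to 2.23 CPM in WT and 0 to 15.3 CPM in cKO. The highest of these was Hdc, with 9.52 CPM in cKO replicate 2 and 0 in the other libraries.

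Fcgr2b, the inhibitory IgG receptor, was detected in every library. It stood at 177 and 97.9 CPM in WT and at 121, 90.4 and 124 CPM in cKO. The WT replicate 1 library was highest and cKO replicate 2 lowest, with the other WT library inside the cKO range. The means were 138 ± 56.2 CPM (SD, n = 2) in WT and 112 ± 18.6 CPM (SD, n = 3) in cKO, a log2 fold change of -0.30 (SE 0.41, edgeR adjusted p = 0.999). Without WT replicate 1 the value was 0.20.

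The balance of the activating to the inhibitory IgG receptors favoured the inhibitory one in all 5 libraries. It was computed per library as the summed counts per kilobase of Fcgr1, Fcgr3 and Fcgr4 over those of Fcgr2b, with 0.5 counts added to each gene. The ratio was 0.845 and 0.233 in WT and 0.357, 0.818 and 0.307 in cKO. One library of each genotype (WT replicate 1 and cKO replicate 2) was near parity and the rest were well below it. The log2 ratio averaged -1.17 ± 1.31 (SD, n = 2) in WT and -1.16 ± 0.76 (SD, n = 3) in cKO, a difference of 0.01. An exact two-sided permutation test over the libraries gave p = 1 (adjusted p = 1 over 4 ratios), where the smallest p that the 10 splits allow is 0.2. With a smallest possible p of 0.2, this test could not have called a shift of any size, so it does not decide whether the balance differed. The difference moved between -0.92 and 0.94 as libraries were left out in turn, so its direction depended on which libraries were used.

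The make-up of the IgG receptor counts shows which gene carried the ratio. Per kilobase, Fcgr2b held 54.2% and 81.1% in WT and 73.7%, 55.0% and 76.5% in cKO. Fcgr3 held 45.8% and 18.9% in WT and 26.2%, 41.3% and 23.5% in cKO. Fcgr1 held 3.72% in cKO replicate 2, 0.0452% in cKO replicate 1 and none in the others. Fcgr3 against Fcgr2b alone gave ratios of 0.844 and 0.233 in WT and 0.356, 0.750 and 0.307 in cKO, with a log2 difference of -0.03 (exact two-sided permutation p = 1, adjusted p = 1). The 2 libraries nearest parity, WT replicate 1 and cKO replicate 2, were also those with the 2 highest levels of Fcgr3, the main part of the ratio's numerator.

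**Figure D2:**
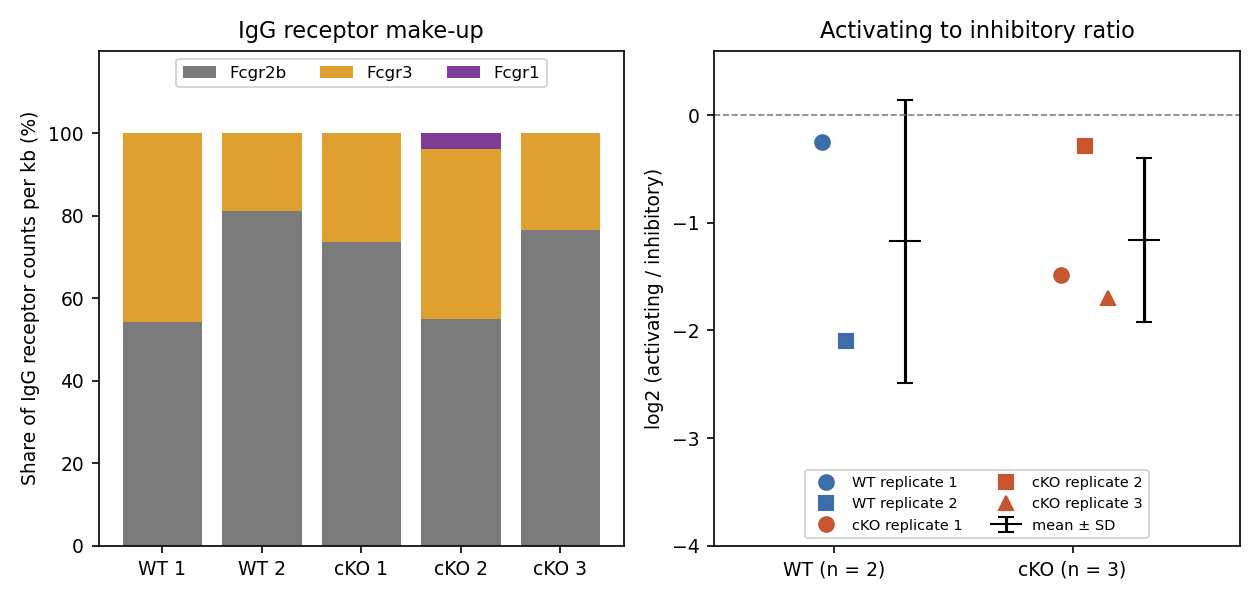
Left, share of IgG receptor counts per kilobase (%) held by Fcgr2b, Fcgr3 and Fcgr1 in each library. Right, log2 ratio of activating to inhibitory IgG receptors for each library with group mean and SD, in which all libraries lie below 0 and the WT pair (-0.24 and -2.10) encloses the 3 cKO libraries.

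Fcer1g, the signalling chain shared by the activating Fc receptors, lay lower in every cKO library than in either WT library. It stood at 2762 and 2772 CPM in WT and at 2472, 1453 and 2448 CPM in cKO. The WT libraries were almost equal, cKO replicates 1 and 3 were a little below them, and cKO replicate 2 was well below. The means were 2767 ± 6.75 CPM (SD, n = 2) and 2124 ± 582 CPM (SD, n = 3), a log2 fold change of -0.38 (SE 0.31, edgeR adjusted p = 0.999).

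Tyrobp, the adaptor of Trem2 and of many other myeloid receptors, showed the same order. It stood at 2287 and 2399 CPM in WT and at 2252, 1087.5 and 2033 CPM in cKO. The gap between the genotypes was narrow, with cKO replicate 1 just under WT replicate 1 and cKO replicate 2 far below the rest. The means were 2343 ± 78.9 CPM (SD, n = 2) and 1791 ± 619 CPM (SD, n = 3), a log2 fold change of -0.39 (SE 0.36, edgeR adjusted p = 0.999). Under upper-quartile scaling the Tyrobp groups overlapped (lowest WT 2211 CPM, highest cKO 2253 CPM), whereas those of Fcer1g stayed apart under all 4 scalings tried.

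These were the 2 of 7 tested members whose groups did not overlap, both with cKO lower, and 10.2% of all tested genes did the same (19.0% in either direction). The log2 fold change was negative in 16 of 16 alternative settings for Fcer1g (-0.55 to -0.17) and for Tyrobp (-0.58 to -0.13). The values nearest 0 came without cKO replicate 2, at -0.17 (SE 0.14) for Fcer1g and -0.13 (SE 0.15) for Tyrobp.

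Both adaptors have short transcripts, with 658 bases of exon in Fcer1g and 569 in Tyrobp, and short genes as a class were low in the same library. The 455 genes with under 800 bases of exon and a mean of at least 50 CPM held 18.3% and 23.5% of the counts in WT and 21.8%, 13.4% and 23.7% in cKO. Their median log2 fold change was -0.14, and 0.08 without cKO replicate 2. Of these short genes 62 (13.6%) had cKO below WT without overlap. The part of transcript length in the values of Fcer1g and Tyrobp was not tested.

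**Figure D3:**
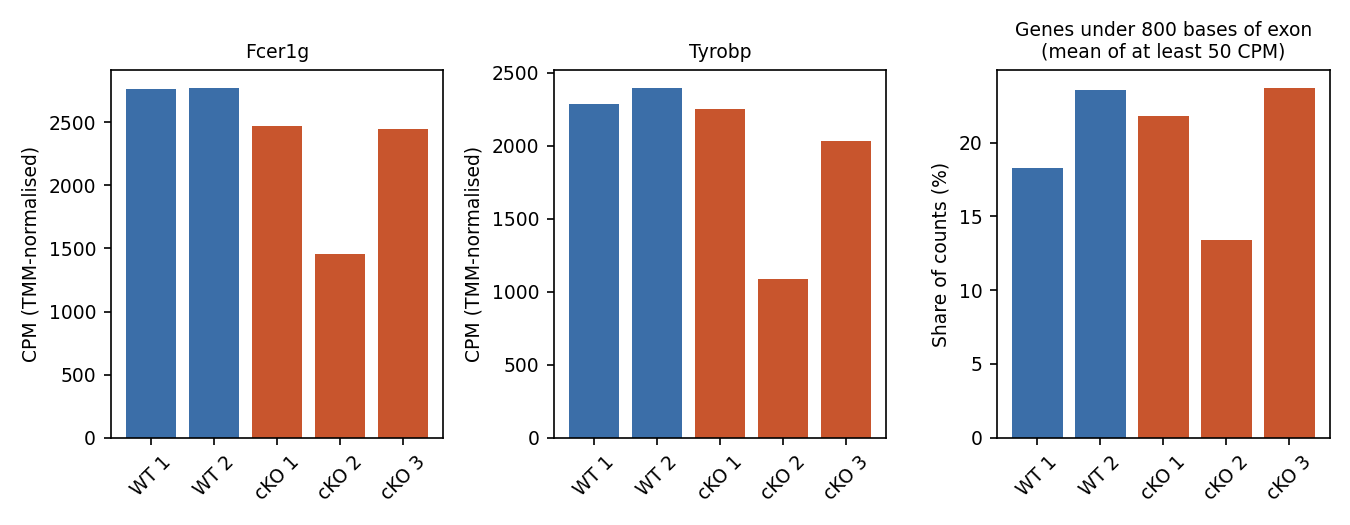
Left and centre, Fcer1g and Tyrobp in CPM for each library. Right, the share of counts (%) held by genes with under 800 bases of exon and a mean of at least 50 CPM, where cKO replicate 2 is lowest (13.4%), as it is for both adaptors.

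The adaptors kept close to each other. Tyrobp over Fcer1g per kilobase was 0.958 and 1.001 in WT and 1.05, 0.866 and 0.960 in cKO, a log2 difference of -0.03 (exact two-sided permutation p = 1, adjusted p = 1). The genes whose pattern was most like that of Fcer1g over the 5 libraries, among 2649 with a mean of at least 50 CPM, were Ndufb4b, Ndufb4c and Gm12174. Their root mean square differences from Fcer1g in centred log2 CPM were 0.0492, 0.0527 and 0.0575, and Tyrobp stood at place 14 with 0.0932. Ndufb4b is named like a subunit of mitochondrial complex I, and Ndufb4b and Ndufb4c are similar copies whose reads may be shared.

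Fcer1g was in large excess over the activating Fc receptor chains of the set. Its counts per kilobase over those of Fcgr1, Fcgr3, Fcgr4 and Fcer1a together gave ratios of 43.3 and 285 in WT and 134, 46.1 and 151 in cKO. Receptors outside the set were not counted, among them the activating receptor Clec4n, at 61.7 to 358 RPKM. The size of the excess thus holds only for the chains counted. The log2 difference of -0.18 was far inside the spread between libraries (exact two-sided permutation p = 1, adjusted p = 1). This ratio was smallest in WT replicate 1 and cKO replicate 2, the libraries with the most Fcgr3. Fcgr3 makes up nearly all of its denominator, so that link is built into the ratio.

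Syk, the kinase that docks on phosphorylated ITAMs, was low and uneven. It stood at 10.2 and 11.8 CPM in WT and at 9.47, 20.3 and 0 CPM in cKO. The WT pair and cKO replicate 1 were close, cKO replicate 2 was higher, and cKO replicate 3 had no count, which allows up to 0.257 CPM. The log2 fold change was -0.15 (SE 2.50, edgeR adjusted p = 0.999), and 0.46 without cKO replicate 3.

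Trem2, a lipid-binding receptor that signals through Tyrobp, was present in some libraries of each genotype. It stood at 5.43 and 0 CPM in WT and at 0.0623, 6.49 and 7.27 CPM in cKO. One WT library and cKO replicate 1 had at most 1 count, and the other 3 were at similar low levels. The log2 fold change of 0.76 (SE 3.19, edgeR adjusted p = 0.999) has an error several times its size, and it was -0.22 without WT replicate 2.

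Sirpa, the inhibitory receptor for Cd47, was one of the tested members that lay higher in cKO, with Trem2. It stood at 68.5 and 87.8 CPM in WT and at 89.2, 159.7 and 71.5 CPM in cKO. Only cKO replicate 2 was far above WT, cKO replicate 1 was level with the higher WT library, and cKO replicate 3 was level with the lower. The means were 78.2 ± 13.7 CPM (SD, n = 2) and 107 ± 46.7 CPM (SD, n = 3), a log2 fold change of 0.45 (SE 0.49, edgeR adjusted p = 0.999). Without cKO replicate 2 it was 0.04.

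The cKO replicate 2 library thus held the lowest Fcer1g, Tyrobp and Fcgr2b and the highest Fcgr1, Syk and Sirpa. It was also the deepest, at 25725900 counts. Genes with 3000 bases of exon or more and a mean of at least 50 CPM held their largest share there, at 12.8%. Their shares were 11.1% and 9.54% in WT and 10.5% and 10.3% in cKO replicates 1 and 3. Sirpa has 4229 bases of exon, Syk 5272, Fcgr1 2589 and Fcgr2b 1547. The part of transcript length in the values of these members was not tested.

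The other genes of these pathways were described with 7 lists of 108 genes in all, of which 76 were tested. EdgeR called 0 of the 76, with 32 higher and 44 lower in cKO and a median log2 fold change of -0.28. At an unadjusted p under 0.05 it gave 7 (9.21%, beside 4.15% of all tested genes). DESeq2 called 3 (3.95%, beside 1.91% of all tested genes), which were Sirpb1c, Blnk and Ptpn22. Groups did not overlap with cKO lower for 11 genes (14.5%, beside 10.2% of all tested genes) and with cKO higher for 7 (9.21%, beside 8.87%). Sirpb1a, Sirpb1b and Sirpb1c were 3 of the 7 genes at an unadjusted p under 0.05 in edgeR and were also among the 11. They share sequence and do not stand for 3 separate measurements, so both of those shares are raised by counting each of them.

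Among other Fc receptors and Fc-binding proteins, 2 of 12 genes were tested, and 1 was higher and 1 lower. Fcgrt, the neonatal Fc receptor that recycles IgG, stood at 167 and 125 CPM in WT and at 74.3, 89.5 and 79.0 CPM in cKO. All cKO libraries lay below both WT libraries, with a log2 fold change of -0.85 (SE 0.37), which did not pass edgeR's adjusted threshold. Fcrlb, an intracellular Fc receptor-like protein, was low, at 0.527 and 0 CPM in WT and 1.93, 4.44 and 7.10 CPM in cKO. Ms4a2, the beta chain of the IgE receptor, had no count.

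Of 21 other activating receptors and adaptors 15 were tested, with 5 higher, 10 lower and a median log2 fold change of -0.58. The lowest values belonged to the signal-regulatory protein beta genes, which encode Tyrobp-associated relatives of Sirpa. Sirpb1c had 307 and 150 counts in WT and 0, 1 and 0 in cKO, a WT to cKO ratio of 712 with a 95% counting interval of 127 to 28188. Sirpb1b had 79 and 53 counts in WT and 0 in each cKO library, which is at least 68.6-fold lower against 3 counts over the group. Sirpb1a had 24 and 21 counts in WT and 0 in each cKO library, at least 23.4-fold lower. These bounds cover counting error only, not the spread between libraries. DESeq2 called Sirpb1c (adjusted p = 0.0336) and edgeR called none of them. These genes share sequence, with 53.1% of the 75-base windows of Sirpb1b also in Sirpb1c and 22.7% also in Sirpb1a. Of the windows of Sirpb1a, 27.5% were also in Sirpb1c. The Sirpb1 genes thus do not stand for 3 separate measurements, while Sirpa shared no window with them. The most abundant gene of the list, Clec7a, the beta-glucan receptor with its own ITAM-like motif, stood at 750 and 271 CPM in WT and 685, 444 and 752 CPM in cKO.

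Of 17 other inhibitory receptors with ITIMs 12 were tested, with 2 higher, 10 lower and a median of -0.60. Clec4a2, a C-type lectin of dendritic cells, stood at 205 and 124 CPM in WT and at 54.0, 53.6 and 99.1 CPM in cKO, without overlap (log2 fold change -1.26, SE 0.47). Siglece, a sialic acid receptor, lay the other way, at 3.37 and 5.81 CPM in WT and 11.0, 34.8 and 37.1 CPM in cKO. Cd72 was the most abundant, at 515 and 485 CPM in WT and 416, 445 and 404 CPM in cKO. None of the 3 passed edgeR's adjusted threshold.

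Among the Src, Tec and related kinases that phosphorylate ITAMs or act beside Syk, 10 of 14 were tested, with 8 higher, 2 lower and a median of 0.22. Tec stood at 12.5 and 7.52 CPM in WT and at 27.0, 79.5 and 22.6 CPM in cKO. Fyn stood at 8.75 and 21.7 CPM in WT and at 40.1, 63.9 and 37.6 CPM in cKO. For both kinases every cKO library lay above WT, with SEs of 1.001 and 0.83 on log2 fold changes of 2.10 and 1.63.

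Of 25 adaptors and effectors downstream of Syk 22 were tested, with 10 higher, 12 lower and a median of -0.23. Blnk, a docking protein for phospholipase C gamma, had 473 and 216 counts in WT and 0 in each cKO library, at least 358-fold lower (DESeq2 adjusted p = 0.00638, not called by edgeR). Plcg2, a phospholipase C gamma enzyme, stood at 58.5 and 34.2 CPM in WT and at 73.5, 158 and 56.2 CPM in cKO, which overlapped. Skap2 was the most abundant, at 439 and 233 CPM in WT and 177, 299.8 and 327 CPM in cKO.

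Of 11 phosphatases and docking proteins grouped here as inhibitory 9 were tested, with 4 higher, 5 lower and a median of -0.28. Ptpn22 had 796 and 266 counts in WT and 0 in each cKO library, at least 552-fold lower (DESeq2 adjusted p = 0.000277, not called by edgeR). Ptprc, which encodes CD45, stood at 246 and 135 CPM in WT and at 89.5, 168 and 58.4 CPM in cKO. Ptpn6, the phosphatase SHP-1 that docks on ITIMs, stood at 396 and 398 CPM in WT and at 185, 512 and 285 CPM in cKO, on both sides of WT.

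Of 8 ligands and sheddases of Trem2 and Sirpa 6 were tested, with 2 higher, 4 lower and a median of -0.04. Adam17, a protease that sheds cell-surface receptors, stood at 3.80 and 11.9 CPM in WT and at 24.6, 129 and 44.2 CPM in cKO, all above WT (log2 fold change 3.07, SE 1.06, not called). Apoe, a lipoprotein that binds Trem2, stood at 283 and 575 CPM in WT and at 729, 954 and 445 CPM in cKO. Lgals3, a galectin that can bind Trem2, overlapped, at 1077 and 1002 CPM in WT and 1629, 536 and 825 CPM in cKO.

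**Figure D4:**
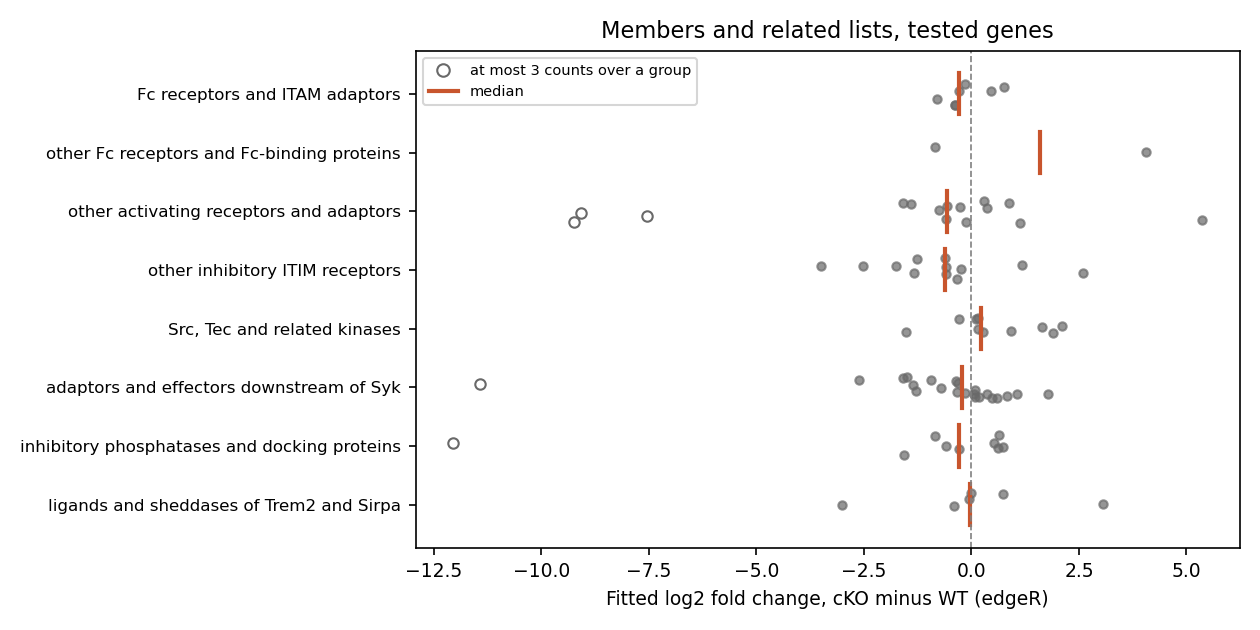
Fitted log2 fold change (cKO minus WT, edgeR) of each tested gene in the set and in 7 related lists, with the list median as a line. Open circles are genes with at most 3 counts over a group, whose fitted value is no measured fold, and the medians lie between -0.60 and 0.22 except for the first related list, which has 2 tested genes.

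Markers of other cells that carry Fc receptors were compared alongside. The list for dermal macrophages and monocytes, which express Fcgr1, Fcgr3 and Trem2, summed to 192 and 150 CPM in WT and to 26.4, 48.9 and 18.0 CPM in cKO. Of its 12 genes 7 had a count, 5 were tested and all 5 lay lower in cKO. Ms4a7 led it, at 127 and 101 CPM in WT and 0.374, 9.56 and 0.257 CPM in cKO (DESeq2 adjusted p = 0.0301, not called by edgeR), while Plac8, Chil3, Folr2, Lyve1 and Cd209f were at 0 in all of them. The part of such cells in the values of Fcgr3, Fcer1g and Tyrobp was not tested.

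NK cells also express Fcgr3, Fcer1g and Tyrobp. Of their 7 markers 3 had a count, and the list summed to 23.0 and 30.5 CPM in WT and 24.99, 25.2 and 62.3 CPM in cKO, led by Klre1, with Ncr1, Gzma, Eomes and Klra8 at 0 in all libraries. The 9 T cell markers summed to 614 and 422 CPM in WT and 680, 234 and 204 CPM in cKO, led by Cd3g, with Cd5 at 0. Neutrophil markers, for cells that carry Fcgr4, summed to at most 0.0587 CPM in WT and to 9.41, 13.01 and 6.24 CPM in cKO, with 7 of 10 at 0 including S100a9 and Mpo. The 10 keratinocyte markers summed to 189 and 598 CPM in WT and 488, 830 and 723 CPM in cKO, led by Krt14. The 8 Langerhans cell markers summed to 101250 to 123913 CPM, led by Cd74. The part of these cells in the members' values was not tested.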

How the data were processed

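The deposited values are raw read counts for each gene, identical in the series table and in the 5 files per sample, beside the authors' gene length, used here as exon length. The submitters' processing notes name featureCounts and mm10. Not given in the sources used here were the aligner, versions, use of strand and treatment of reads that match more than 1 gene. Libraries were made from polyadenylated RNA with an ultra-low-input kit, per the labels' protocols. Symbols were matched for 25293 of 27179 identifiers, 25275 through RefSeq (GRCm38.p6). Gene positions are RefSeq's on that assembly. Depth ran from 12090062 to 25725900 counts.

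From these counts, genes were filtered with filterByExpr (minimum count 10), scaled by TMM and tested with edgeR 4.0.16's robust quasi-likelihood F test (R 4.3.3) on all 5 libraries, and called at a Benjamini-Hochberg adjusted p under 0.05. CPM uses the effective library size. The SE beside an edgeR log2 fold change is that value's size divided by the square root of its F statistic, and is not a separately fitted error. The 4 ratios used an exact permutation test. Alternatives were DESeq2 1.42.0, limma-voom (limma 3.58.1), RLE and upper-quartile scaling, other filters, a non-robust fit, the wording of the titles as a term, a replicate block, each library left out and, for ratios, other added counts and no length division. A mean of at least 50 CPM and edgeR with its legacy setting off were chosen after seeing the data. Of the fits, only edgeR's was tested on simulated data. Its pass condition was recovery of the largest simulated fold changes at a set spread between libraries, not at the spread observed here. That condition does not measure what could be recovered from these libraries. Recovery at the observed spread was also simulated and is not reported here. Same-group libraries differed by 182 to 410 chi-square per degree of freedom, so no pair agreed within counting noise. Python 3.11.15 with matplotlib 3.10.9 drew the figures.

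The members and lists were chosen with earlier results of these data known. Genes named were the 10 members, Suz12, and, with none called in a list, the 2 tested genes with the smallest p and the 1 with the highest mean per kilobase, the leading or absent markers, and the 3 genes most like Fcer1g. Some values under this rule are not reported here. Sirpb1b, Ms4a2, Clec4n, Cd207, Epcam and the DESeq2 calls were named after their values were seen. So were the classes of short and long genes, defined after the members' lengths were seen. Fitted ratios and medians are on the log2 scale.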

Additional observations from a re-analysis of the deposited data

How the results depend on the processing

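Members called numbered 0 under each of 16 alternatives, and Fcer1g, Tyrobp and Sirpa kept their direction in each. The number of genes called among all tested was 191 with DESeq2, 1 with the replicate block and 3 with a mean of at least 50 CPM (chosen after seeing the data), against 0. Deviations of same-numbered libraries from their group means had correlations of -0.03 and -0.02. With 2 WT libraries the WT deviations mirror each other, so this check cannot decide whether the numbers mark pairs. Under the replicate block the Fcgr3 to Fcgr2b difference was 0.22 and the Syk value 0.34, both reversed. Leaving out each library in turn gave log2 differences of -0.92 to 0.94 for the activating to inhibitory ratio, -0.96 to 0.90 for Fcgr3 to Fcgr2b, -1.54 to 1.17 for Fcer1g to the activating receptors and -0.10 to 0.039 for Tyrobp to Fcer1g. Leaving them out gave log2 fold changes of -0.66 to 0.20 for Fcgr2b, -1.58 to 1.13 for Fcgr3, -0.22 to 9.40 for Trem2 and -1.22 to 0.46 for Syk. Within sample titles written LC, the activating to inhibitory difference was -0.64 and the Fcer1g to activating receptors difference 0.86. Within titles written Langerhans-cell, 1 library a genotype, the Fcgr3 to Fcgr2b difference was 0.40. Without edgeR's legacy setting, an added alternative, Syk was 0.19, and it was -3.62 with limma-voom and -3.78 with the wording of the titles as a term, beside -0.15. Fewer samples enter the settings that leave libraries out and those within 1 wording of the titles. The replicate block gives cKO replicate 3 no WT partner, so its genotype differences rest on replicates 1 and 2. Without cKO replicate 3 the Fcgr3 to Fcgr2b difference was likewise 0.22, and the Syk value was 0.46. For the other settings the cause was not tested. With 2 WT libraries, ratio tests cannot give p below 0.2, and Fcgr1, Fcgr4 and Fcer1a are limited by depth.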

Other observations

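Of the B cell markers, Ighm stood at 277 and 267 CPM in WT and 234, 278 and 260 CPM in cKO. Cd79a, Cd79b, Ms4a1 and Pax5 had no count in any library. Ighm encodes the constant region of IgM, and it varied less between libraries than Fcgr2b or Fcgr3 did, from 234 to 278 CPM against 90.4 to 177 CPM and 19.9 to 131 CPM.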
